A study of Mus musculus with 12 samples.

Results

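The share of an mRNA engaged with ribosomes can change while its amount stays the same, and the comparison described here asked which mRNAs moved onto or off heavy polysomes in the mouse testis between 1 and 4 days post partum (dpp). It used 12 of the 12 arrays of the series, all from testes of wild-type CD-1 mice, an outbred strain, in 4 groups of 3 arrays. At each age, RNA from the top of a sucrose gradient (fractions 1 to 3, called non-translating) and RNA from heavy polysomes (fractions 7 to 13, called polysome) was hybridised separately to Affymetrix whole-genome mouse arrays. The fractions between these pools, which hold single ribosomes and light polysomes, were not profiled. Tissue was washed in cycloheximide, which stops ribosomes where they are on the mRNA. The labels call the arrays of a group biological replicates but do not say which animals or how many went into each, so the p-values here take in only how these samples vary, which may be technical.

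Ribosomes load onto an mRNA one after another, and the more of them it carries the deeper it sediments, so an mRNA in the heavy fractions is generally one that is being translated efficiently. An mRNA that is stored or repressed stays near the top of the gradient as a free ribonucleoprotein. In the neonatal testis the male germ cells, called prospermatogonia or gonocytes, leave a resting state, divide again and become spermatogonia, and storage and later release of mRNAs is a known mode of gene control in germ cells.

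For each gene the polysome ratio is the mean log2 signal of the 3 polysome arrays minus that of the 3 non-translating arrays of the same age, and the change of the ratio is the value at 4 dpp minus the value at 1 dpp. A change of 1 means that the ratio was 2-fold higher at 4 dpp. Equal amounts of RNA went onto the arrays, so a ratio stands against the rest of the RNA in its pools and is not the share of an mRNA on polysomes. The change in level is the mean of the changes with age in both pools. It is not the total amount of an mRNA, because both pools are weighted equally and the fractions between them are missing. In whole testis, a different mix of cells and a different use of the mRNA within a cell cannot be told apart. The gene lists below were chosen with earlier results of these data known. Their shares beside those of all genes therefore describe the lists and do not test them.

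The tissue's defining markers were present. The filter on low signal was passed by 20 markers fixed for germ, Sertoli, Leydig, peritubular, endothelial, macrophage and erythroid cells, and not by the endothelial marker Pecam1. Median signal per array was 22.4 to 26.1. Of the polysome arrays 3 stood apart, with a mean signal of spiked control RNAs of 677.5 (4 dpp replicate 1), 466.9 (4 dpp replicate 3) and 1564 (1 dpp replicate 3) against 2927 to 6620 on the other 9 arrays. Every fit below without these 3 arrays rests on replicate 2 alone in the 4 dpp polysome group, and on replicates 1 and 2 at 1 dpp. The 3′ minus 5′ log2 signal of Actb and Gapdh control probe sets, a measure of how complete the labelled RNA was, averaged 3.71 ± 0.70 (SD, n = 3) on polysome arrays at 1 dpp. At 4 dpp the polysome arrays averaged 1.96 ± 0.26 (SD, n = 3). In the non-translating groups it averaged 3.23 ± 0.44 (SD, n = 3) at 1 dpp and 3.32 ± 1.60 (SD, n = 3) at 4 dpp. Replicate 1 of the 4 dpp non-translating arrays was at 5.17, against 2.42 and 2.38 for replicates 2 and 3. This measure moved with age in the polysome pool and it was added to the model as an alternative. With it the median change of the ratio was 0.89 for mitochondrial ribosomal proteins, 0.17 for cytosolic ribosomal proteins, 0.52 for germ granule genes, −0.37 for axon guidance and −0.39 for the transforming growth factor beta list, each described below. Beyond this model its part in the results was not tested.

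Across the 13752 genes tested the median change of the ratio was −0.01, and 48.8% of genes had a change above 0. Limma with Benjamini-Hochberg adjustment called 2 genes at an adjusted p under 0.05, 0.0145% of those tested, and both were higher at 4 dpp. At an unadjusted p under 0.05 the limma fit gave 487 genes with a higher ratio (3.54%) and 463 with a lower one (3.37%). A change of at least 1 was seen upwards in 626 genes (4.55%) and downwards in 196 (1.43%). These counts depended on single polysome arrays. Without 4 dpp polysome replicate 2 the changes of at least 1 numbered 1491 and 436, without 1 dpp polysome replicate 3 they numbered 1410 and 416, and without the 3 arrays of low spike level 404 and 725. Without 1 dpp non-translating replicate 1 there were 1040 upwards, without 4 dpp polysome replicate 1 there were 336 upwards, and without 4 dpp polysome replicate 3 there were 381 downwards. Scaling moved the split between directions as well, to 489 and 349 under quantile normalization, 473 and 330 with equal trimmed means, and 319 and 344 with the spike level as a covariate. The polysome pool carried most of the movement. Its change with age had an SD across genes of 0.65, against 0.35 in the non-translating pool, and 963 genes were called between ages in the polysome pool (7%), against 1 in the non-translating pool (0.00727%). That gene was Car3, a carbonic anhydrase, which rose by 5.80 in the non-translating pool and was 4.09 higher on polysomes. These comparisons share arrays with the change of the ratio and are set beside it only to show which pool moved.

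**Figure D1:**
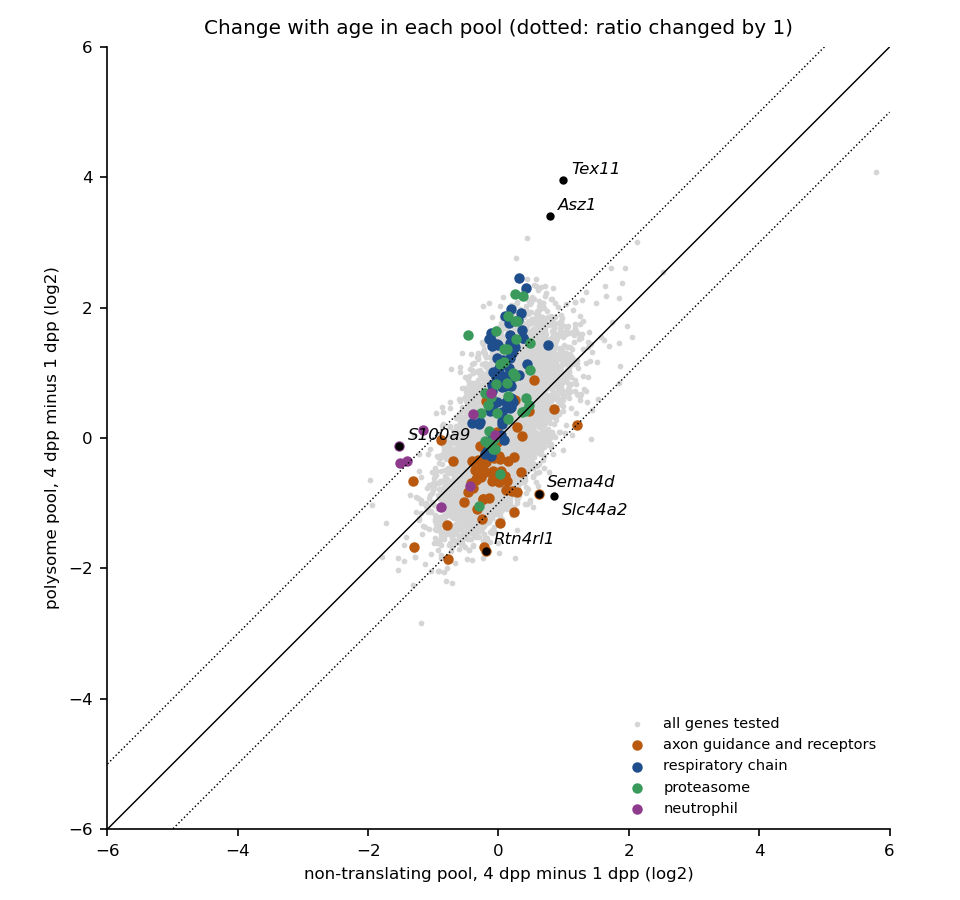
Each point is 1 gene, placed by its change from 1 to 4 dpp in the non-translating pool (horizontal axis, log2) and in the polysome pool (vertical axis, log2). On the solid line the ratio is equal at both ages, and the dotted lines mark a change of the ratio of 1 in each direction. Respiratory chain genes (blue) and proteasome genes (green) lie near 0 on the horizontal axis and mostly above 0 on the vertical one, Tex11 and Asz1 lie near the top with polysome changes of 3.96 and 3.40, Car3 is the point at the far right, and neutrophil genes (purple) extend to the left.

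Both called genes act in germ cells. Tex11 encodes a meiosis protein needed for chromosome synapsis and crossing over. Its log2 signal on the 1 dpp non-translating arrays was 4.17, 3.94 and 4.36, and on the 1 dpp polysome arrays 3.15, 3.34 and 3.25. At 4 dpp it was 5.15, 4.94 and 5.34 in the non-translating pool and 7.11, 7.20 and 7.29 in the polysome pool. At 4 dpp it was higher on polysomes than in the free pool on every array, and the ages did not overlap in either pool. The order of the pools at 1 dpp is not read here, since all 3 polysome arrays lay under the filter's 4.12. The ratio of Tex11 moved from −0.91 to 2.06, and the change of 2.97 ± 0.25 (SE) had an adjusted p of 0.000455 by limma. The polysome pool rose by 3.96 and the non-translating pool was 0.99 higher, so the level of Tex11 mRNA differed by 2.47 at the same time as its ratio. With 1 non-translating array, 4 arrays were under 4.12, and setting them to 4.12 gave a change of the ratio of 2.16, or 4.45-fold, and a ratio of −0.10 at 1 dpp.

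Asz1 encodes an ankyrin-repeat protein of germ granules that takes part in making piRNAs, the small RNAs that silence transposons in the male germ line. Its log2 signal at 1 dpp was 6.16, 6.37 and 5.91 in the non-translating pool and 4.99, 5.23 and 5.12 in the polysome pool. At 4 dpp it was 6.77, 6.78 and 7.25 in the non-translating pool and 8.23, 8.53 and 8.79 in the polysome pool. On every array Asz1 was lower on polysomes than in the free pool at 1 dpp and higher at 4 dpp. The ratio of Asz1 moved from −1.03 to 1.58, a change of 2.61 ± 0.33 (SE) or 6.13-fold, with an adjusted p of 0.0266 by limma with Benjamini-Hochberg adjustment. A dimmer probe set of Asz1 (mean log2 signal 4.39) gave 0.38. Without the 3 arrays of low spike level the change was as large (2.63) but the adjusted p was 0.156, and with the 3′ minus 5′ signal in the model it was 2.40 with an adjusted p of 0.405. Leaving out 1 array kept the call of Asz1 only for 4 dpp non-translating replicate 3 and 4 dpp polysome replicate 1. Tex11 stayed called in each of these fits.

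**Figure D2:**
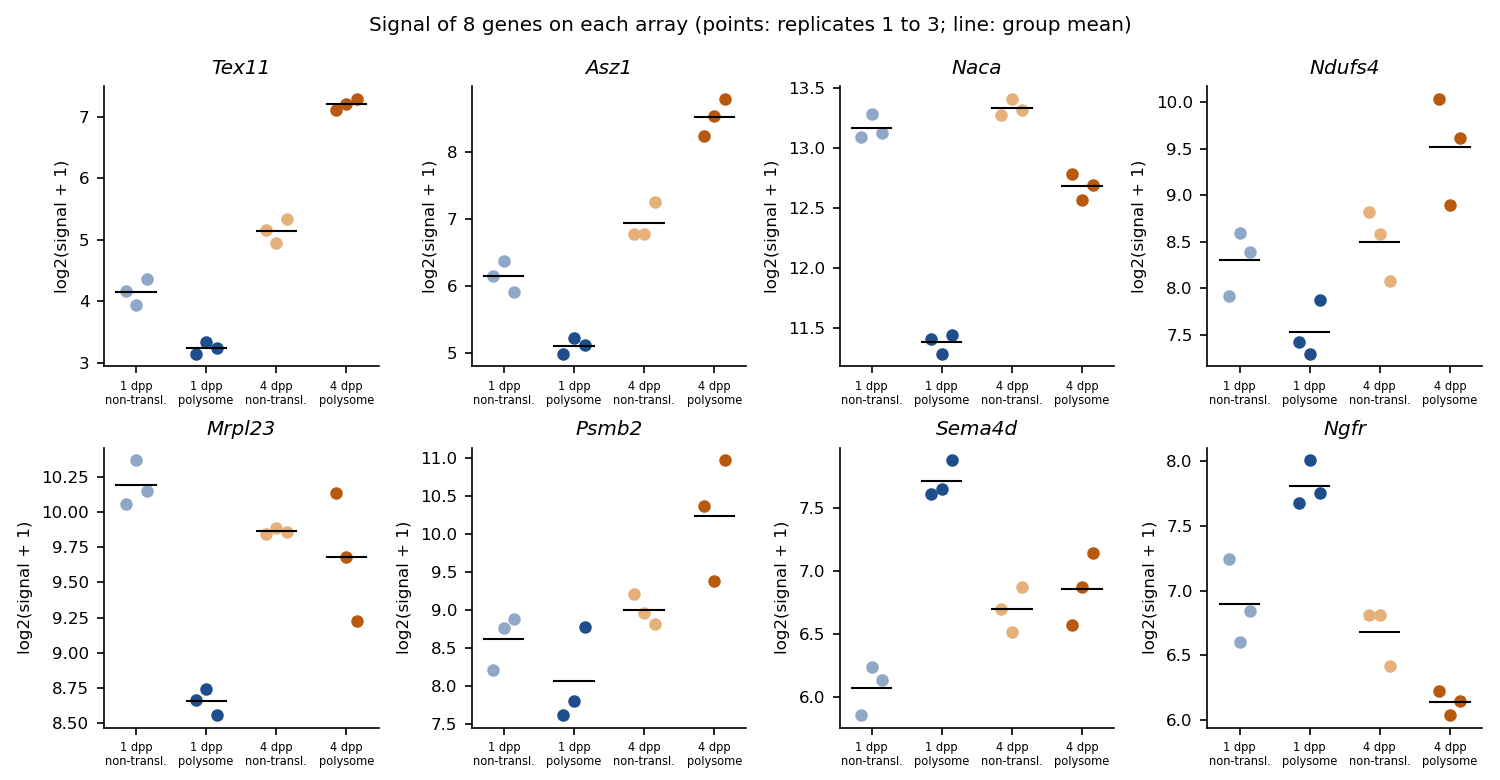
Log2(signal + 1) of 8 genes on the 12 arrays, with 3 points per group for replicates 1 to 3 and a line at the group mean; the vertical axes differ between panels and do not start at 0. Asz1 crosses from below the non-translating pool at 1 dpp to above it at 4 dpp, Tex11 is far higher in the 4 dpp than in the 1 dpp polysome pool, Naca, Ndufs4, Mrpl23 and Psmb2 are higher in the 4 dpp than in the 1 dpp polysome pool, and Sema4d and Ngfr are lower.

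The other genes of the germ line did not share a shift of this size. Of 29 tested genes of germ granules and piRNA processing, 22 had a change above 0 and the median change of the ratio was 0.50, with 1 member called, Asz1 itself. The kinase-like Stk31 was at 1.41, Prmt5, the arginine methyltransferase that modifies Piwi proteins, at 0.87 and Henmt1, which methylates piRNA ends, at 0.50. Mael, another piRNA factor, gave 1.50 with an SE of 0.97. This list also differed in level (median 0.60), in both the polysome (0.60) and the non-translating pool (0.38). Without the 3 arrays of low spike level its median change of the ratio was 0.18. Of 31 meiosis genes 19 had a change above 0, with a median of 0.23 and 1 member called, Tex11. That median was 0.05 without the 3 arrays, and without 4 dpp polysome replicate 3 it was −0.036. Mnd1, which helps strand exchange in recombination, was at 1.31, while the mismatch repair gene Mlh3 was at −0.94 and Terb1, which ties telomeres to the nuclear envelope, at −0.70.

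Of 8 well known genes of germ cell differentiation, each except Sohlh1 differed more in level than in ratio. Dazl, an RNA-binding protein of germ cells, was 1.78 higher in level with a change of the ratio of 0.57, and Ddx4, the germ cell RNA helicase, 1.69 higher with 0.84. Stra8, the retinoic acid target that precedes meiosis, was 1.51 higher in level with 0.24, and Rhox13 1.43 higher with 0.51. The values for the receptor Kit were 0.78 in level and 0.23 in ratio, and those for Sohlh1, a transcription factor of early differentiation, 0.24 and 0.64. Sohlh2 gave 0.96 and −0.45, and the DNA methyltransferase Dnmt3b 0.91 and −0.67. None of these 8 genes was called for its ratio, with limma adjusted p from 0.766 to 0.981, and the SE of the change was large for Dazl (1.22) and Kit (1.02). The sign was not stable for 3 of them, since without the 3 arrays of low spike level Stra8 was at −0.51 and Kit at −1.27, and with the spike level as a covariate Dazl was at −0.25. The 29 genes of spermatogonial differentiation had a median of 0.09, and −0.26 without the 3 arrays. In this list Crabp1, a retinoic acid binding protein, was highest at 1.34 and Ccnd2 lowest at −0.89. The possible ratios of both genes overlapped between ages, and other probe sets of Ccnd2 ran from −0.93 to 1.24.

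Of 34 tested genes of prospermatogonia and undifferentiated spermatogonia, 22 had a change below 0 and the median was −0.23. By limma 2 were lower at an unadjusted p under 0.05 (5.88%, against 3.37% of all genes), and without 4 dpp polysome replicate 2 the median was 0.032. The 4 with the smallest p were the transcription regulators Glis3 (−1.08), Taf4b (−0.95) and Zbtb16 (−1.11), and the surface protein Epcam (−0.77), all with limma adjusted p of at least 0.66. Sall4, a stem cell transcription factor, was at −0.73 and Gfra1, the receptor for the niche factor GDNF, at −0.46. On the 1 dpp polysome arrays Glis3 was at 6.68, 6.45 and 6.39, and on the 4 dpp polysome arrays at 5.44, 5.80 and 5.84. Its non-translating arrays were at 5.24, 5.37 and 5.25 at 1 dpp and at 5.78, 5.27 and 5.61 at 4 dpp. For Glis3 the polysome groups did not overlap and the non-translating groups did.

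The highest list median, close to that of the mitochondrial ribosome below, was found in nuclear-encoded genes of the respiratory chain and ATP synthase, the complexes of the inner mitochondrial membrane that transfer electrons to oxygen and make ATP. Of 71 tested genes (of 77 listed), 67 had a change above 0 and 4 below. The median change of the ratio was 0.82, against −0.01 over all genes. None of the members (0 of 71) was called after adjustment by limma. At an unadjusted p under 0.05, 26 members were higher and 0 lower, 36.6% of the list against 3.54% of all genes, and 30 members reached a change of 1, against 4.55% of all genes. The ratio was below 0 at 1 dpp and above 0 at 4 dpp in 35 of the 71 genes (49.3%), which held for 11.7% of all genes. In 16 members, every ratio that can be formed from 1 polysome and 1 non-translating array was higher at 4 dpp than every one at 1 dpp, against 1.39% of all genes, and in 0 members the reverse was seen.

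The respiratory chain genes differed in the polysome pool and hardly in the free pool. The median change with age was 0.95 on polysomes and 0.08 in the non-translating pool. On polysomes, limma called 25 of the 71 genes higher at 4 dpp and 0 lower, against 3.4% and 3.6% of all genes. All 30 members with a change of at least 1 had a polysome change of at least 1 and a non-translating change under 0.5. Because the level is the mean of both pools, the list's median level was also 0.51 higher.

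Ndufs4, an accessory subunit of complex I, was at 7.91, 8.60 and 8.39 in the non-translating pool and 7.42, 7.29 and 7.87 in the polysome pool at 1 dpp. At 4 dpp it was at 8.82, 8.58 and 8.08 in the non-translating pool and 10.04, 8.89 and 9.61 in the polysome pool. The polysome arrays of Ndufs4 did not overlap between ages and the non-translating arrays did. Its ratio moved from −0.77 to 1.02, a change of 1.79 ± 0.47 (SE, limma adjusted p = 0.66), while its other probe sets gave 0.50 and 0.95. Of the genes for the membrane ring of ATP synthase, Atp5g2 was at 1.51 and Atp5g3 at 1.73, and Ndufa8 of complex I was at 1.67. The median change was 0.83 over 33 genes of complex I, 0.57 over 4 of complex II, 0.82 over 9 of complex III, 0.75 over 9 of complex IV and 1.13 over 15 of ATP synthase. The value for complex II was 0.13 without the 3 arrays of low spike level, that for complex III 0.52, and the others lay between 0.63 and 0.97. The 4 members below 0 lay close to it, namely Atp5d (−0.16), Sdha (−0.11), Ndufa10 (−0.04) and Ndufv1 (−0.02). A second, dimmer probe set was measured for 45 of the genes, and 43 of these were above 0, with a median of 0.92.

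**Figure D3:**
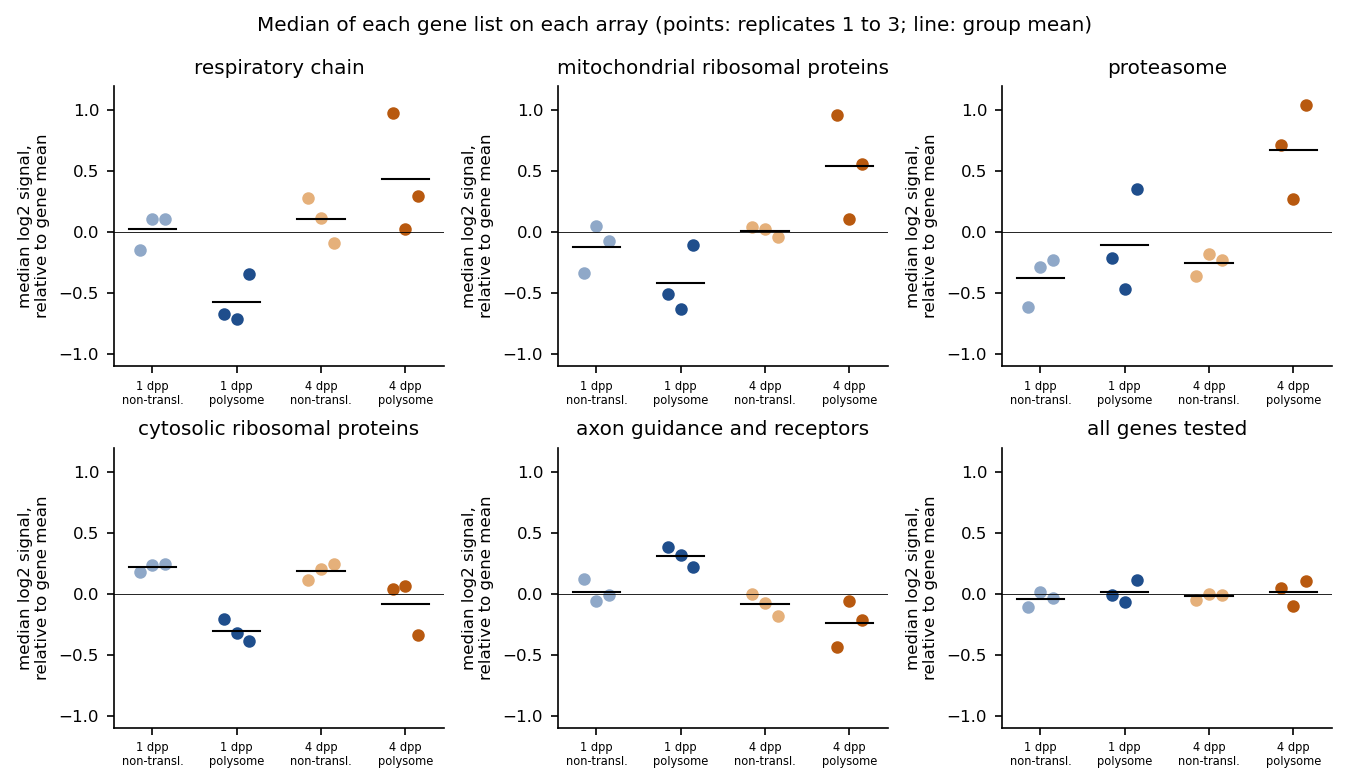
For each array, the median over the genes of a list of log2 signal relative to the gene's mean over the 12 arrays, with 3 points per group for replicates 1 to 3 and a line at the group mean. Respiratory chain, mitochondrial ribosome and proteasome genes have their highest group mean on the 4 dpp polysome arrays and axon guidance genes on the 1 dpp polysome arrays, and the median over all genes stays near 0.

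The array values show how far this shift rested on single arrays. Relative to each gene's mean, the median of the respiratory chain list was −0.67, −0.71 and −0.34 on the 1 dpp polysome arrays and 0.98, 0.03 and 0.30 on the 4 dpp polysome arrays. On the non-translating arrays it was −0.14, 0.11 and 0.11 at 1 dpp and 0.28, 0.12 and −0.09 at 4 dpp. All 4 dpp polysome arrays were thus above all 1 dpp polysome arrays, and 4 dpp polysome replicate 1, an array of low spike level, was the highest. With the 3′ minus 5′ signal in the model the median change of the ratio was 1.14. Without the 3 arrays of low spike level it was 0.65, with 4 dpp polysome replicate 2 alone in its group. On that array the list was at 0.03, below 4 dpp non-translating replicates 1 and 2 (0.28 and 0.12) and above replicate 3 (−0.09). Citric acid cycle enzymes, the mitochondrial pathway that feeds the chain, had a median of 0.24 over 18 genes, and 0.02 without those 3 arrays. Of these genes 1 was at a change of at least 1, against 4.55% of all genes. Glycolysis, the cytosolic route of sugar breakdown, was at −0.19 over 16 genes.

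Mitochondrial ribosomal proteins, which are made in the cytosol and translate the few proteins encoded in the mitochondrial genome, behaved like the respiratory chain. Of 76 tested genes 71 had a change above 0, with a median of 0.79. At an unadjusted p under 0.05 by limma, 31 were higher (40.8%, against 3.54% of all genes) and 0 lower. A change of 1 was reached by 29, against 4.55% of all genes. The median was 0.84 over 47 genes of the large subunit and 0.77 over 29 of the small subunit. In this list the polysome pool was 0.99 higher at 4 dpp and the non-translating pool 0.10 higher. On polysomes limma called 26 genes higher, against 3.4% of all genes. The lowest values were those of Mrps27 (−0.54), Mrpl44 (−0.46) and Mrpl39 (−0.44).

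Mrpl23, a protein of the large mitochondrial subunit, was at 10.06, 10.37 and 10.15 in the non-translating pool at 1 dpp and at 8.67, 8.74 and 8.56 in the polysome pool. At 4 dpp the non-translating arrays of Mrpl23 were at 9.85, 9.89 and 9.86 and the polysome arrays at 10.13, 9.68 and 9.23. The polysome arrays were higher and the non-translating arrays lower at 4 dpp, with no overlap in either pool. Its ratio moved from −1.54 to −0.18, a change of 1.36 ± 0.34 (SE). Mrpl14 was at 1.61, Mrpl17 at 1.40 and Mrpl21 at 1.18, each with a limma adjusted p of 0.66. Dim other probe sets gave 0.24 for Mrpl17 and −0.18 and 0.37 for Mrpl21. Without the 3 arrays of low spike level the list's median was 0.50, its lowest value under any alternative tried. Second probe sets of 33 of these genes had a median of 0.60, with 26 above 0.

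The third group of this kind was the proteasome, the protease that degrades ubiquitin-tagged proteins. Of 37 tested genes 33 had a change above 0, with a median of 0.70, and 12 reached a change of 1, against 4.55% of all genes. At an unadjusted p under 0.05 by limma, 11 were higher (29.7%, against 3.54% of all genes) and 0 lower. Unlike the mitochondrial lists, the proteasome list as a whole already had a median ratio above 0 at 1 dpp (0.21), and it was 1.10 at 4 dpp. The change was 1.24 over 14 genes of the catalytic core, 0.35 over the 6 ATPases of the cap, 0.66 over the 14 other cap subunits and 0.56 over the 3 activators. These values were 0.76, 0.32, 0.39 and 0.13 without the 3 arrays of low spike level. The median ratio at 1 dpp was above 0 only in the ATPases (0.52) and the other cap subunits (0.67). It was −0.14 in the core genes and −0.07 in the activators. Psmd3 (−0.73) and Psmd11 (−0.58), both non-ATPase subunits of the cap, were lowest.

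Psmb2, a subunit of the core, was at 8.21, 8.77 and 8.88 in the non-translating pool and at 7.62, 7.80 and 8.78 in the polysome pool at 1 dpp. At 4 dpp Psmb2 was at 9.21, 8.97 and 8.82 in the non-translating pool and at 10.37, 9.38 and 10.97 in the polysome pool. The change of the ratio was 1.80 ± 0.57 (SE). The highest polysome value at each age was on replicate 3, and all 3 arrays of low spike level were higher than the other polysome arrays of their age. Psmd8 was at 1.73, Psma7 at 1.54 and Psma4 at 1.24. Without those 3 arrays the median of the proteasome list was 0.54, and with the 3′ minus 5′ signal in the model 0.66. Second probe sets of 17 of these genes had a median of 1.00, with 13 above 0, against 0.18 for their main ones. The cytosolic chaperone list, of genes that fold proteins, had a median of 0.29 over 28 genes, and −0.04 without the 3 arrays. In it Cct8 was at 1.34, and Hspe1, whose product acts in mitochondria rather than the cytosol, at 1.24.

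The cytosolic translation machinery showed a smaller difference. Most of its mRNAs carry a terminal oligopyrimidine (TOP) tract, a C followed by further pyrimidines at the very start of the transcript, through which growth signalling sets their entry into polysomes. Of 81 cytosolic ribosomal protein genes listed, 44 were tested as single genes, 36 of them with a change above 0. The median was 0.28, with 9 genes higher (20.5%, against 3.54% of all genes) and 0 lower at an unadjusted p under 0.05 by limma. Their ratio stayed below 0 at both ages, with a median of −0.52 at 1 dpp and −0.28 at 4 dpp. In 9 members every possible ratio was higher at 4 dpp than every one at 1 dpp, against 1.39% of all genes. Of 23 other mRNAs of the TOP class, mostly translation factors, 22 had a change above 0, with a median of 0.42. Quantile normalization gave a median of 0.10 for the ribosomal proteins, and the 3′ minus 5′ signal in the model gave 0.11 for the other TOP mRNAs, which were at 0.19 without 4 dpp non-translating replicate 1 and 0.64 without the 3 arrays of low spike level.

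Naca, a ribosome-associated chaperone subunit counted with the TOP class, had the smallest p after Tex11 and Asz1. It was at 13.09, 13.29 and 13.13 in the non-translating pool at 1 dpp and at 11.40, 11.28 and 11.44 on polysomes. At 4 dpp Naca was at 13.28, 13.41 and 13.32 in the non-translating pool and at 12.78, 12.57 and 12.69 on polysomes. The free pool was close to equal at both ages, and the polysome arrays stood 1.30 higher at 4 dpp with no overlap. The change was 1.14 ± 0.20 (SE, limma adjusted p = 0.435), and the other probe set of Naca gave 1.31. The ribosomal protein gene Rps3a1 followed the same course, at 12.39, 12.06 and 12.68 on polysomes at 1 dpp and 13.46, 13.32 and 13.51 at 4 dpp, a change of 0.98 ± 0.23 (SE). Rpl7a was at 0.86, Rps9 at 0.81 and Rpl11 at 0.64, and the translation factors Eif3m, Eif3k and Eef1b2 at 1.29, 0.90 and 0.58. The initiation factors and growth-signalling genes outside the TOP class had a median of 0.11 over 42 genes. Among them the helicase Eif4a1 was at −0.68 by its brightest probe set and at 0.85 and 2.14 by its other probe sets.

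The starts of 6 of these transcripts are shown because the TOP tract sits there. Each run holds 15 bases before and 15 bases from the RefSeq start (build GRCm38.p6, sense strand), and capitals mark an unbroken stretch of C and T of at least 7 bases, counted from its first C, where that C lies within 10 bases of the start. Naca, Rps3a1 and Eif3k have no such stretch in this window, and Rps9, Rpl22l1 and Eef1a1 have one.
Naca: gcaactcgttctcttaaagaggaaacccgg
Rps3a1: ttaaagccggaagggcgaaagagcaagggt
Eif3k: aaaacaaccggcgctggtgctgaaagcgcc
Rps9: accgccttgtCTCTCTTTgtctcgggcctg
Rpl22l1: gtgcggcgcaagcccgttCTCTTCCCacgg
Eef1a1: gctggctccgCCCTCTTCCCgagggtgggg

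These windows lie at chr10:128035331-128035360 (Naca, plus strand), chr3:86142654-86142683 (Rps3a1, minus), chr7:28981874-28981903 (Eif3k, minus), chr7:3704026-3704055 (Rps9, plus), chr3:28805493-28805522 (Rpl22l1, plus) and chr9:78481710-78481739 (Eef1a1, minus). The change of the ratio was 1.03 for Rpl22l1 and 0.35 for Eef1a1. The stretch was found at 10.6% of 32851 RefSeq starts. Of the 44 ribosomal protein genes tested 39 had a RefSeq start in the table, and 18 of these (46.2%) had the stretch, against 13.1% of 11042 genes tested. The median change was 0.19 in the ribosomal protein genes with it and 0.39 in those without it. A window without the counted stretch can still hold a C and T run that begins too far before the RefSeq start. Rpl7a and Rpl4 were such cases, and both were counted among the genes without it. A RefSeq start can also lie several bases from the start used in the testis. The lack of the stretch therefore says only that none begins near the RefSeq start.

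After Naca, the genes with the smallest p and a higher ratio were of mixed function. Crnkl1, a splicing factor, was at 5.32, 5.08 and 5.05 on polysomes at 1 dpp and at 6.38, 6.33 and 7.07 at 4 dpp, with a change of 1.68 ± 0.31 (SE, limma adjusted p = 0.435). Cbr2, a carbonyl reductase, was at 4.90, 4.96 and 5.08 on polysomes at 1 dpp and at 7.22, 6.50 and 6.63 at 4 dpp, with a change of 1.66 ± 0.32 (SE). In both genes the non-translating arrays overlapped between ages and the polysome arrays did not. The metabolic enzymes Bdh2 (1.46), Ethe1 (1.74, a mitochondrial sulfur dioxygenase) and Fuom (1.61), the calcium-binding protein Sri (1.69), the transcription coactivator Sub1 (1.30) and Fam229b (1.59) completed the list with Rps3a1. Among 24 genes with the smallest p in both directions, 14 had another probe set, and in 4 of these at least one other probe set had the opposite sign. In only 4 of the 14 did the next brightest probe set have the same sign and at least 50% of the size.

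Lower ratios at 4 dpp were frequent in the list of guidance cues and receptors, membrane and secreted proteins first described in growing axons. Like the other lists it was chosen with earlier results of these data known. Of 67 tested genes of axon guidance 57 had a change below 0 and 10 above, with a median of −0.32, and 0 were called lower by limma after adjustment, against 0% of all genes. At an unadjusted p under 0.05 by limma, 11 were lower (16.4%, against 3.37% of all genes) and 1 higher (1.49%, against 3.54%). A ratio lower by at least 1 was seen in 9, against 1.43% of all genes. In 8 members every possible ratio was lower at 4 dpp, against 2.49% of all genes. The ratio was above 0 at 1 dpp and below 0 at 4 dpp in 18 genes (26.9%), against 12.1% of all genes. The polysome pool of this list was at −0.50 and the non-translating pool at −0.18, so the level was also lower, by a median of −0.33. A second probe set, available for 33 genes, gave a weaker picture, with 19 below 0 and a median of −0.12, against −0.31 for the main probe sets of these genes. With a pseudocount of 64 the list's median was −0.18, and without the 3 arrays of low spike level −0.28.

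Sema4d, a transmembrane semaphorin, had the smallest p of all genes with a lower ratio. It was at 5.85, 6.24 and 6.13 in the non-translating pool and at 7.61, 7.65 and 7.88 on polysomes at 1 dpp. At 4 dpp Sema4d was at 6.70, 6.51 and 6.87 in the non-translating pool and at 6.57, 6.87 and 7.14 on polysomes. The pools were far apart at 1 dpp and overlapped at 4 dpp, while the level differed by only −0.12. The ratio moved from 1.64 to 0.16, a change of −1.48 ± 0.32 (SE, limma adjusted p = 0.66). Ngfr, the low-affinity neurotrophin receptor, was at 7.67, 8.01 and 7.75 on polysomes at 1 dpp and at 6.23, 6.04 and 6.15 at 4 dpp, against 7.24, 6.61 and 6.84 and then 6.82, 6.81 and 6.42 in the free pool. Its change was −1.46 ± 0.33 (SE), the polysome groups stood apart and the free pools overlapped. Dim other probe sets of Sema4d gave −0.31 and −0.25. The Nogo receptor relative Rtn4rl1 was at −1.53 and by its other probe set at −0.93, Sema7a at −1.38 and Sema4g at −1.02, while the ephrin Efna4 was at 0.76. Of 19 semaphorin genes tested, 17 had a change below 0, with a family median of −0.28.

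The other genes with a lower ratio and a small p were of mixed function. Mmp17, a membrane-anchored metalloproteinase, was at −1.43, Cadm1, an adhesion molecule, at −1.59, the receptor kinase Tyro3 at −1.42, the adhesion protein Adam23 at −1.10 and the secreted protease Htra3 at −1.01. Rab7, a GTPase of late endosomes, was at −1.09 and the helicase Rad54l2 at −1.05. Dimmer probe sets of the same genes were closer to 0 or above it, at 0.29 for Tyro3, −0.045 for Adam23, −0.097 and 0.21 for Htra3 and −0.017 for Rab7, and at −0.63 for Rad54l2. Those of Cadm1 were at −0.78, −0.97 and 0.95. Actb, cytoplasmic beta-actin, was at 13.34, 13.16 and 13.39 on polysomes at 1 dpp and 12.39, 12.49 and 12.12 at 4 dpp, with a change of −0.98. A second Actb probe set gave 0.86, and Actb is itself one of the transcripts from which the 3′ minus 5′ measure was taken, so its direction is not settled here. Over 49 genes of actin and adhesion the median was −0.08, and the second probe sets of 33 of them had a median of 0.51, against −0.14 for their main ones.

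The transforming growth factor beta family of ligands, receptors and Smad effectors, which includes activin and bone morphogenetic protein signals that act on gonocytes and Sertoli cells, was lower as well. Of 45 tested genes 32 had a change below 0, with a median of −0.36. However, just 1 was lower and 1 higher at an unadjusted p under 0.05 by limma. That is 2.22% each, against 3.37% and 3.54% of all genes. Among receptors, the type I activin receptor Acvr1b was at −1.07, with 9.08, 8.64 and 9.16 on polysomes at 1 dpp and 8.18, 7.96 and 8.24 at 4 dpp, while a dim second probe set of Acvr1b gave 0.07. Of the ligands, the Sertoli cell hormone Amh was at −0.90, and of the inhibitors, Smad7 was at −0.73. The targets Id1 and Id2, inhibitors of differentiation factors, went the other way, at 1.15 and 1.11. Without 4 dpp polysome replicate 2 the median of this list was −0.15, and without the 3 arrays of low spike level −0.54. Second probe sets of 22 genes had a median of −0.11, with 12 below 0.

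**Figure D4:**
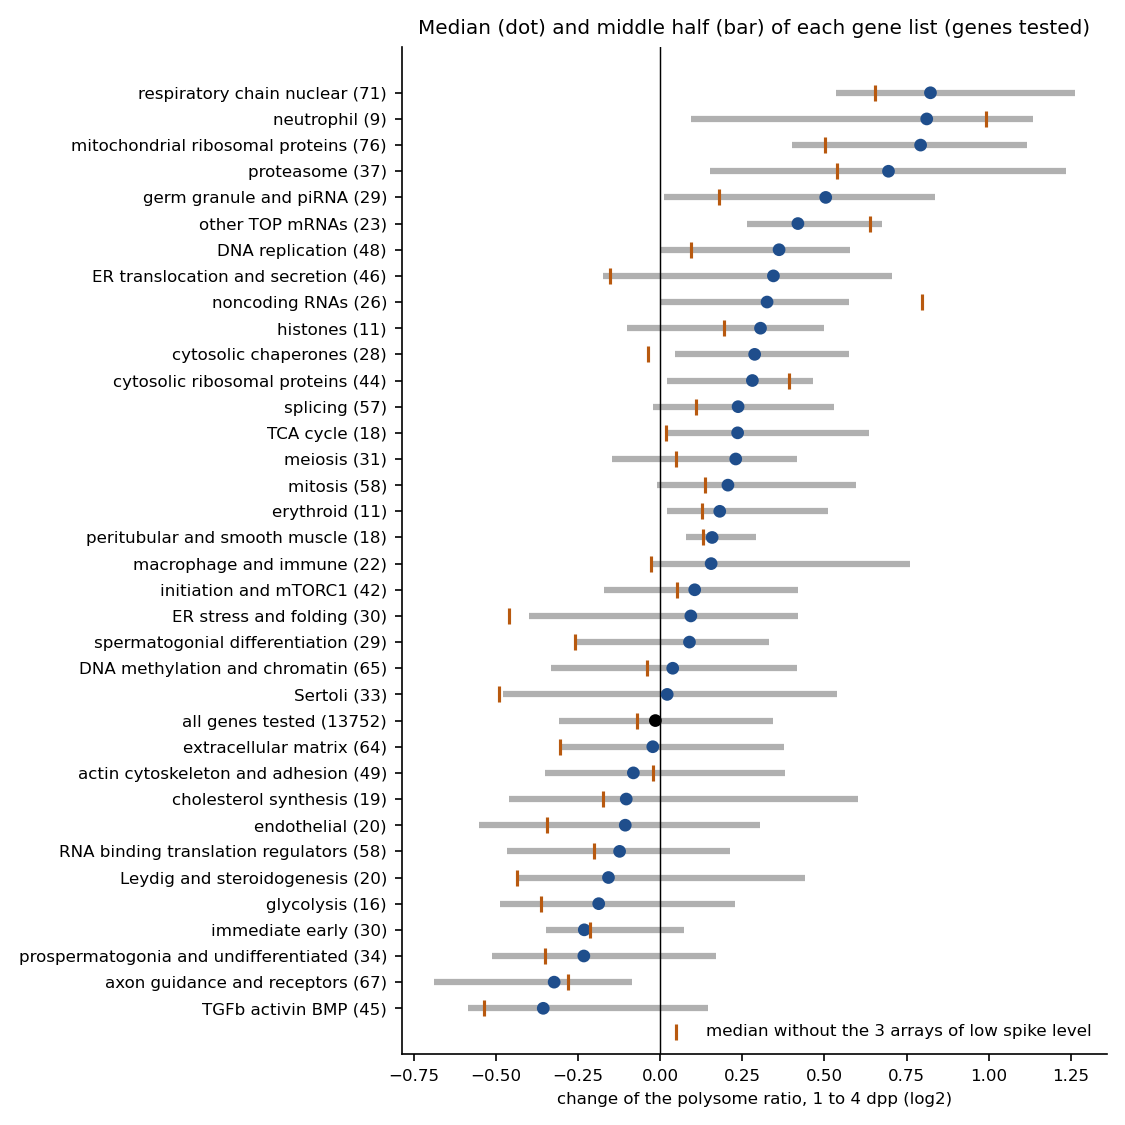
Median change of the ratio between 1 and 4 dpp (dots, log2) and the range from the lower to the upper quartile (bars) for each gene list, with the number of genes tested in brackets; all genes tested are in black. The upright mark is the median without the 3 arrays of low spike level, which leaves 4 dpp polysome replicate 2 alone in its group. Respiratory chain, mitochondrial ribosome and proteasome lists stay above 0.5 with and without those arrays, and the lists of axon guidance and transforming growth factor beta stay below 0.

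Lists of the somatic cells of the testis had medians between −0.16 and 0.18, and several moved with the 3 arrays of low spike level. Sertoli cell genes, from the cells that nurse the germ cells, had a median of 0.02 over 33 genes, with 17 above 0 and 16 below. Without the 3 arrays of low spike level that median was −0.49. Rhox5 was at 0.84 and Cst12 at 1.54, while Dhh was at −1.34, Amh at −0.90, Clu at −0.48 and Sox9 at −0.35. Other probe sets gave 0.34 for Dhh, 0.78 for Sox9, and −0.46, −0.44 and 0.17 for Clu. Genes of Leydig cells, which make androgens, had a median of −0.16 over 20 genes, with Fdx1, the electron donor of steroid synthesis, at 1.24 and the lipoprotein receptor Scarb1 at −0.75. Cyp11a1, the first enzyme of steroid synthesis, was at 6.73, 6.96 and 6.92 in the free pool at 1 dpp and 5.41, 5.55 and 5.79 at 4 dpp, and at 7.79, 7.42 and 8.76 and then 8.32, 6.74 and 9.06 on polysomes. For Cyp11a1 the free pool was lower at 4 dpp on all arrays and the polysome pool overlapped, giving a change of 1.34 with an SE of 0.69. Peritubular and smooth muscle genes had a median of 0.16, with 14 of 18 above 0, and macrophage genes 0.16, with 16 of 22 above 0. Erythroid genes were at 0.18, endothelial genes at −0.11 and extracellular matrix genes at −0.02. The medians without the 3 arrays were −0.44 for Leydig, −0.34 for endothelial, −0.30 for matrix and −0.03 for macrophage genes. Without 4 dpp polysome replicate 2 they were 0.12, 0.25, 0.28 and 0.70, so the signs of these lists are not settled.

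Which pool moved, and whether the level moved with it, separates the changes into classes. Of the 626 genes with a ratio higher by at least 1, 437 (69.8%) were at least 1 higher on polysomes and under 0.5 apart in the free pool. In 5 the free pool alone moved, meaning by at least 1 with the polysome pool under 0.5 apart. In 12 the pools moved in opposite directions by at least 0.5 each, and 172 fell in none of these classes. Of the 196 with a lower ratio the corresponding numbers were 114 (58.2%), 4, 10 and 68. These counts moved with single arrays. Without the 3 arrays of low spike level, 218 higher and 389 lower genes were of the first kind, and with 1 array left out these numbers ran from 234 (without 4 dpp polysome replicate 1) to 1046 (without 4 dpp polysome replicate 2) and from 77 to 304 (the same arrays). Without 4 dpp non-translating replicate 3, 18 higher genes moved in the free pool alone and 51 in opposite directions. The level differed by less than 0.5 in 135 of the 626 (21.6%) and in 75 of the 196 (38.3%). Since the level is the mean of both pools, movement of the polysome pool alone also shifts it. These counts therefore follow in part from the definitions. Conversely, of 499 genes with a level change of at least 1, 141 had a change of the ratio under 0.5 and 164 of at least 1. The choline transporter Slc44a2 was among those with opposite movement, at 8.74, 9.04 and 8.89 in the free pool and 12.20, 12.05 and 12.15 on polysomes at 1 dpp, then 10.56, 8.89 and 9.79 in the free pool and 11.00, 11.22 and 11.51 on polysomes. Its polysome arrays were lower at 4 dpp without overlap, its level was close to equal, and its change was −1.74 ± 0.48 (SE). Cadm1 and Sema4d also belonged to this class, as did Fuom, Gstk1, Anxa6 and Etfb among the higher genes.

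The genes in which the free pool alone moved included a single cell type's products. Of 5 such genes with a higher ratio, 4 were S100a8, S100a9, Stfa3 and Stfa2l1, abundant mRNAs of neutrophils, and the fifth was Cyp11a1. The polysome arrays of Stfa2l1 also did not overlap between ages, although their means were under 0.5 apart. S100a9 was at 6.98, 7.32 and 7.13 in the free pool at 1 dpp and 5.71, 6.27 and 4.89 at 4 dpp, while on polysomes it was at 6.49, 6.33 and 5.99 and then 6.19, 6.29 and 5.97. The free pools of S100a9 did not overlap and its polysome pools did, and the change was 1.40 ± 0.43 (SE). A list of 20 neutrophil genes was drawn up after these values were seen and holds these 4, so its values only restate them. Its 9 tested members had a median of −0.89 in the free pool and 0.81 for the change of the ratio, and without a filter on low signal the latter was 0.11. Genes whose free pool alone was higher at 4 dpp were the secreted netrin Ntn4 (−1.01), Cytip (−1.43), Clic6 (−1.01) and Dusp9 (−1.07). Without 4 dpp polysome replicate 2, Clic6 was at −0.56 and Dusp9 at −0.29.

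**Figure D5:**
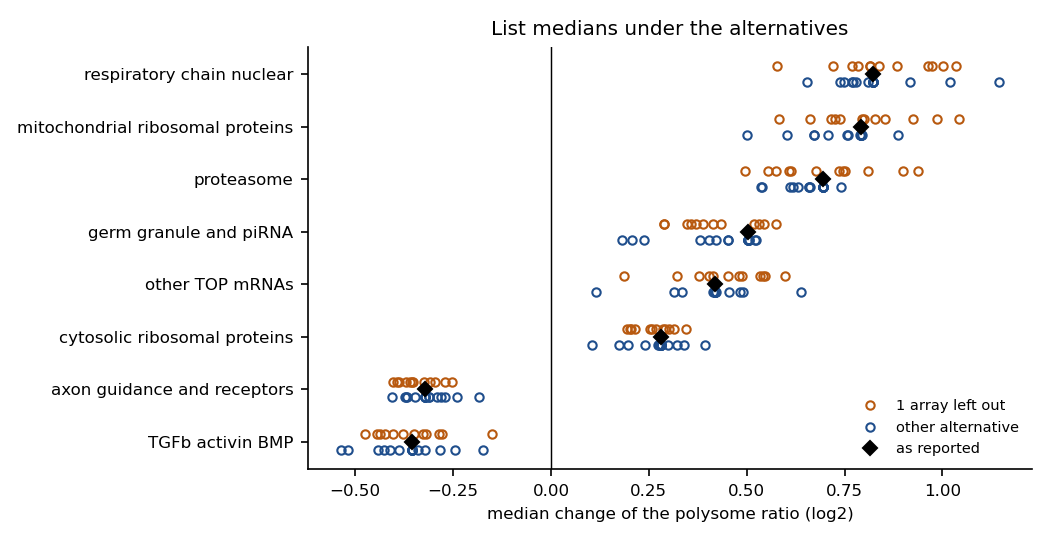
Median change of the polysome ratio (log2) of 8 gene lists as reported (diamonds), with 1 array left out (orange circles) and under the other alternatives (blue circles). The 6 upper lists stay above 0 and the 2 lower lists below 0 in every setting shown.

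Among the remaining lists, genes of protein entry into the endoplasmic reticulum had a median of 0.34, with Sec61b at 1.31, but −0.15 without the 3 arrays of low spike level. DNA replication genes were at 0.36, with the replication protein A subunit Rpa3 at 1.67, mitosis genes at 0.21, splicing genes at 0.24 and long noncoding RNAs at 0.33. Leaving out the 3 arrays gave 0.09, 0.14, 0.11 and 0.80, and noncoding RNAs were at −0.050 without 4 dpp polysome replicate 2. The Sm protein Snrpd3 was at 2.65, but its other probe sets gave −0.47 and −0.25. RNA-binding regulators of translation were at −0.12, with Trim71 at −0.94 and the Argonaute Ago1 at −0.93, and at 0.050 without 4 dpp polysome replicate 2. Cholesterol synthesis genes were at −0.10, although Fdps, which makes farnesyl diphosphate, was at 2.21. Its polysome arrays were at 8.50, 7.99 and 9.42 at 4 dpp against 6.24, 6.47 and 7.00 at 1 dpp, so the groups did not overlap. Immediate early genes were at −0.23, chromatin genes at 0.04, histones at 0.31 and genes of the endoplasmic reticulum stress response at 0.09. The stress response genes were at −0.46 without the 3 arrays, and without 4 dpp polysome replicate 1 the histones were at −0.041.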

How the data were processed

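For the 12 arrays the authors deposited 1 table of linear probe set intensities, made with MAS5 per the submitters' processing notes, whose version is not given in the sources used here. Its values ran from 3.71 to 23370. Leaving out 2% of the values at either end, array means were 106.5 to 147.2, and the scaling between arrays is unknown.

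Values were used as log2(value + 1), on which changes of dim genes come out smaller than they are. Of 45037 probe sets other than controls, 34945 had 1 gene symbol in the platform annotation. Each gene was represented by its brightest probe set, and genes under the 40th percentile of mean log2 signal (4.12) were left out, which left 13752. One model of 4 group means was fitted with limma 3.58.1 in R 4.3.3 (eBayes with a trend), the change of the ratio was its interaction contrast, and p-values were two-sided and adjusted by the Benjamini-Hochberg method over all genes tested. The fit was checked on simulated data with independent noise for each gene and array. Such data hold no deviations shared by the genes of an array, so the check does not cover those.

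Named genes were all called genes, the 12 with the smallest p in each direction without clone-like symbols, 4 members of each list and 4 genes of each class by smallest p, and a set list of genes of germ cells, somatic cells and common references; other genes named were chosen after their values were seen. The 34 gene lists and 1 added later are described by counts and medians, and members and lists were chosen with earlier results of these data known. Alternatives covered scaling, pseudocount, filter, probe set choice, variance model, array quality covariates, replicate number as a block, and arrays left out. The number of arrays limits the precision.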

Additional observations from a re-analysis of the deposited data

Results flagged for a closer look

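The difference between polysome and non-translating pools was not the same at the 2 ages for 2 genes, by the interaction term of the limma fit. For Tex11 the change of the ratio was 2.97 on the log2 scale, and for Asz1 it was 2.61.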

How the results depend on the processing

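Results were recomputed under 12 fits with 1 array left out and 18 other alternatives, of which the fit on all probe sets, named or not, was added after seeing the data. The number of genes called higher was 2, and 1 under quantile normalization, equal medians, a pseudocount of 64, the 60th percentile filter (which left Tex11 out), all probe sets with 1 symbol or of any kind, the median of a gene's probe sets, both replicate blocks, the 3′ minus 5′ covariate and without the 3 arrays of low spike level; with 1 array left out it was 1 to 2. No gene was called lower in any of them (0 in each). Tex11 stayed called in each of the 28 fits that tested it. Asz1 was 2.43 under quantile normalization (limma adjusted p = 0.0557), 2.62 with equal medians (0.0601), 1.67 with a pseudocount of 64 (0.0541), 2.61 over all probe sets with 1 symbol (0.0653), 1.50 for the median of its probe sets (0.682), 2.40 with the 3′ minus 5′ covariate (0.405), 2.63 without the 3 arrays (0.156) and 2.48 to 2.77 with 1 array left out, 10 of which ended its call.

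The labels do not say whether same-numbered arrays of both pools come from the same gradient. With so few arrays per group the deviations cannot settle it. Deviations of same-numbered arrays correlated at 0.60, −0.56 and 0.03 at 1 dpp and −0.23, −0.17 and 0.28 at 4 dpp, and 5 of 12 arrays correlated best with their own number. With the number as a replicate block Asz1 was at 2.61 (adjusted p = 0.0728), and within age 2.61 (0.283), so 1 gene was called.

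The medians of the 8 leading lists kept their sign throughout. They ranged from 0.58 to 1.14 for the respiratory chain (1.14 with the 3′ minus 5′ covariate), 0.50 to 1.04 for the mitochondrial ribosome (0.50 without the 3 arrays) and 0.49 to 0.94 for the proteasome. Cytosolic ribosomal proteins were at 0.10 under quantile normalization. Other TOP mRNAs were at 0.11 with the 3′ minus 5′ covariate, 0.64 without the 3 arrays and 0.19 to 0.60 with 1 array left out. Axon guidance was at −0.18 with a pseudocount of 64, and the transforming growth factor beta list at −0.47 to −0.15 with 1 array left out. The sign of some genes turned. The median of probe sets gave 0.24 for Htra3 and 0.013 for Cytip, the spike covariate −0.25 for Dazl, −0.15 for Stra8 and −0.58 for Kit, and leaving out the 3 arrays −0.51 for Stra8 and −1.27 for Kit. The causes were not tested. With 1 array left out Dazl ranged from −0.053 to 1.54, Stra8 from −0.14 to 0.78, Kit from −0.43 to 1.22 and Gfra1 from −0.99 to 0.074. At an unadjusted p under 0.05, 487 genes were higher and 463 lower, against 530 and 641 under quantile normalization, 685 and 1347 with the spike covariate, and 273 to 1202 and 248 to 858 with 1 array left out, highest without 4 dpp polysome replicate 2. Signals near the lowest of the platform, as for Tex11 at 1 dpp, limit what a fold change can show.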

Other observations

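Probe sets that match several genes were left out of the comparisons above. Of 640 such probe sets above the filter level, 83 had a higher ratio at 4 dpp and 5 a lower one at an unadjusted p under 0.05 in the limma fit over all 27022 probe sets (13.0% and 0.781%), and 0 were called after adjustment. Of 2850 probe sets with no symbol, 38 were higher and 42 lower (1.33% and 1.47%). Over all probe sets of that fit the shares were 3.69% and 2.61%. By gene family, among families with at least 15 genes tested, the median change was 0.67 for the Timm genes, which carry proteins into mitochondria, 0.59 for genes named Cox and 0.37 for the Ube genes of ubiquitin transfer. It was −0.19 over 251 Slc transporter genes. These families were looked at after the values were seen.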
